A study of Homo sapiens with 6 samples.

Results

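The subject is the transcriptome of T47D cells that received a control siRNA, and its members are the 3 control siRNA libraries of the 6 libraries in the series. They were chosen by their label alone, and the other 3 libraries, which received an siRNA against HOTAIR-N, were not used. T47D is an established human luminal breast cancer cell line that carries the estrogen and progesterone receptors. They were kept in RPMI with 10% serum, received the siRNA with the lipid reagent RNAiMAX and were lysed in TRIZOL at 48 hours, and ribosomal RNA was depleted with RiboZero Gold before stranded total RNA libraries were sequenced. The series describes the 3 libraries as independent transfections. There was no untransfected sample among them, so the levels below are those of transfected cells in serum-containing medium.

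Luminal cells line the ducts of the breast, and their identity is held by a circuit in which FOXA1 opens chromatin, GATA3 maintains the luminal program and the estrogen receptor, encoded by ESR1, drives hormone-dependent genes. The progesterone receptor gene PGR is a classical estrogen-induced gene, and PRLR encodes the receptor for prolactin, the hormone of milk production. Keratins 8 and 18 pair to form the intermediate filaments of simple epithelia, whereas the outer, basal layer of the duct makes keratins 5 and 14.

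Each library held between 35106084 and 36707169 expected counts, the read estimates of RSEM, over 27968 listed genes. Levels are given as TPM, the usual per-length measure of transcript abundance, which is corrected for transcript length and so allows genes to be compared with each other. Expressed means a TPM of at least 1 in all 3 libraries, and 12674 genes (45.3% of those listed) were expressed in that sense. Of these, 1684 reached 100 TPM and 125 reached 1000 TPM in every library. No count at all was found in any library for 7547 genes. The median mean TPM was 0.463 over all genes and 21 over the expressed ones. An exact sign-flip test over 3 libraries cannot give a two-sided p below 0.25, so no test is given, and neighbouring genes in an order are called distinct only where their ranges over the 3 libraries do not overlap. Those ranges reflect spread between libraries of 1 cell line. Each transfection gave 1 library, so spread from transfection, library preparation and sequencing cannot be told apart. Replicate 2 stood apart from the others along the GC content of genes, which the last results describe, so many values are given for each library. Others are given as a mean, mostly with the SD over the 3 libraries, which does not show the part of replicate 2. Without replicate 2, 12778 genes were expressed, a count that could only stay or rise with fewer libraries.

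All 7 luminal marker genes were expressed, and their order was the same in each library. KRT8, a keratin of simple epithelia, was at 4565, 3876 and 4493 TPM in replicates 1, 2 and 3. Its partner KRT18 was at 2108, 1925 and 2115 TPM. Replicate 2 was the lowest for both keratins. PRLR, the prolactin receptor, was at 441.9, 436.8 and 424.9 TPM. GATA3, the zinc finger factor of the luminal lineage, was at 317.8, 293.1 and 325.4 TPM. No PRLR value overlapped a GATA3 value, which rests on a short PRLR transcript described with the other transcripts, and replicate 2 was again the lowest for GATA3. PGR was at 165.9, 178.0 and 160.1 TPM. FOXA1, the pioneer factor, was at 148.5, 156.9 and 148.4 TPM. ESR1 was at 83.8, 88.9 and 85.9 TPM. Replicate 2 was the highest for these 3 genes. No neighbouring pair among the 7 markers overlapped over the libraries, although PGR in replicate 3 and FOXA1 in replicate 2 were close.

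**Figure D1:**
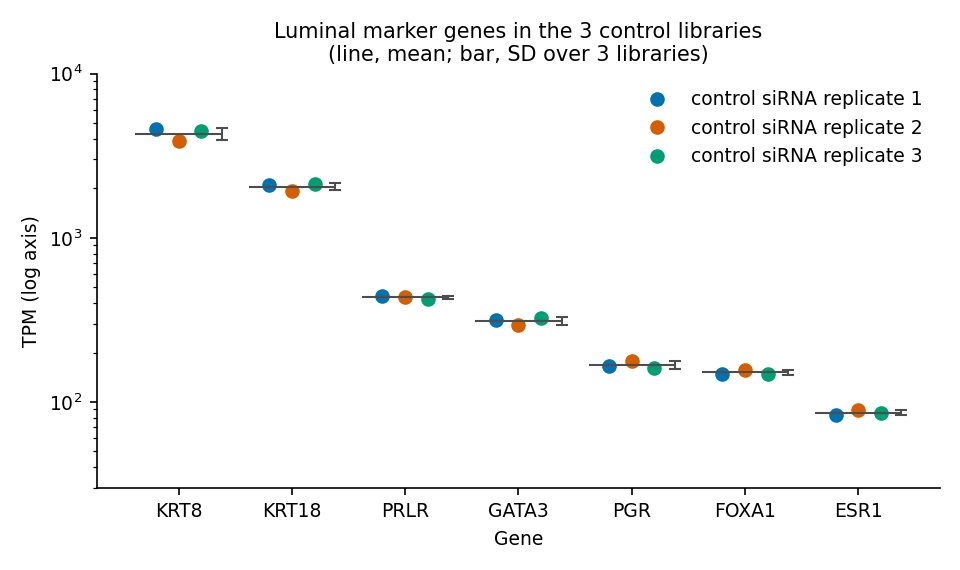
TPM of the 7 luminal marker genes on a log axis, with a point for each control siRNA library, a line at the mean and a bar for the SD (n = 3). KRT8 and KRT18 lie above 1900 TPM in every library and ESR1, the lowest marker, below 90 TPM.

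KRT8 transcripts were 2.10 ± 0.0782 times (SD, n = 3) as abundant as those of KRT18, and PGR transcripts 1.95 ± 0.0749 times as abundant as those of ESR1. GATA3 stood at 2.14, 1.87 and 2.19 times FOXA1, lowest in replicate 2. Among all genes with an effective length of at least 200 bases, PRLR ranked 312th, between the tetraspanin CD63 and the membrane protein BST2. PGR ranked 970th, between CORO1B and PPP2CA, and ESR1 ranked 2062nd, between the kinase gene PRPF4B and the chromatin remodelling gene SMARCC1. KRT8 ranked 17th. KRT8 and KRT18 have many processed copies in the genome. Their expected counts were not whole numbers, as happens when RSEM shares reads between genes. Whether processed copies took part of their reads was not tested.

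The wider luminal lists were not independent of the markers. KRT8 and KRT18 belong to the luminal and epithelial list, and GATA3, PGR, FOXA1 and ESR1 to the luminal transcription factors. Of 30 luminal and epithelial markers, 28 (93.3%, against 45.3% of all genes) were expressed, with a median of 135 TPM. KRT19, a further simple-epithelial keratin, was at 2551, 2183 and 2465 TPM. AGR2, a disulfide isomerase of secretory cells, was at 1396, 1488 and 1402 TPM. CA12, the carbonic anhydrase of estrogen receptor-positive tumours, was at 621.8, 621.1 and 610.5 TPM. CD24 at 595 ± 39.2 TPM, MUC1 at 479 ± 17.7 TPM and JUP at 346 ± 28.6 TPM completed the 8 highest with KRT8 and KRT18. The exceptions were the mammaglobin genes SCGB2A2, at 0.31, 0 and 0.16 TPM, and SCGB1D2, at 0, 0.2 and 0 TPM. Both are secretoglobins used as breast markers.

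Of 26 luminal transcription factors, 24 (92.3%, against 45.3% of all genes) were expressed, with a median of 36.3 TPM. XBP1, which expands the secretory pathway, led at 1258, 1328 and 1249 TPM. TRPS1, a GATA-type repressor, was at 193.8, 205.0 and 188.8 TPM. ELF5, the factor of milk-forming alveolar cells, was at 110.2, 120.9 and 113.2 TPM, and its range overlapped that of the epithelial factor GRHL2 at 122 ± 1.26 TPM. These levels of TRPS1, GRHL2 and ELF5 lay above that of ESR1 in every library. TFAP2C and SPDEF followed ESR1, at 80.7 ± 0.649 TPM and at 82.8, 67.3 and 83.0 TPM. TFAP2B stayed below 0.3 TPM in each library, and TOX3 was at 0.01 TPM in each.

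Markers of other cell types were mostly below 1 TPM, as were most listed genes. Of 26 basal and myoepithelial markers, 10 (38.5%, near the 45.3% of all genes) were expressed, with a median of 0.310 TPM, below the median of all genes. The defining basal keratins were at or near 0: KRT5 reached at most 0.03 TPM and KRT17 at most 0.26 TPM. KRT14 had no count, where 3 counts pooled over the 3 libraries would have given 0.0361 TPM. TP63, the master factor of basal cells, reached at most 0.35 TPM. The highest member was CDH3, P-cadherin, at 64.3, 59.9 and 61.7 TPM, followed by the integrin chain ITGB4 at 32.9 ± 3.34 TPM, the actin gene ACTA2 at 21.9 ± 1.24 TPM, DST, and the integrin chain ITGA6 at 15.85 ± 0.756 TPM. On the log2(TPM + 1) scale the luminal list median exceeded the basal list median by 6.64 ± 0.00335 (SD, n = 3), with medians of 7.04 and 0.40. The size of that gap depends on the pseudocount and on the members with very low values.

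**Figure D2:**
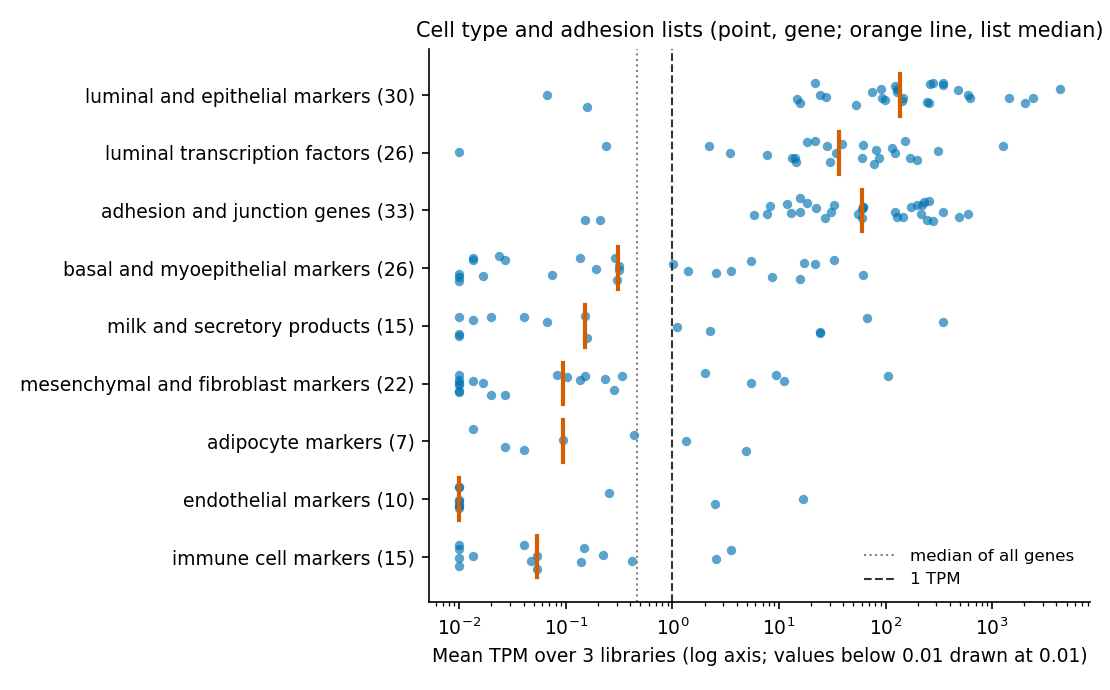
Mean TPM over the 3 control libraries of each member of 9 gene lists on a log axis, with the list median in orange, the median of all genes dotted and 1 TPM dashed. The luminal, luminal transcription factor and adhesion lists have medians of 135, 36.3 and 60.0 TPM, and the medians of the 6 other lists lie below the median of all genes.

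Of 22 mesenchymal and fibroblast markers, 5 (22.7%, against 45.3% of all genes) were expressed, led by S100A4, a calcium-binding protein, at 108.0, 101.4 and 105.6 TPM. FN1, fibronectin, followed at 11.1 ± 0.307 TPM, COL1A1 at 9.37 ± 0.697 TPM and the transcription factor TWIST1 at 5.45 ± 0.526 TPM. Vimentin, the mesenchymal intermediate filament encoded by VIM, was at 0.15, 0.16 and 0.10 TPM, and N-cadherin, CDH2, was at 0.15, 0.16 and 0.14 TPM. Repressors of epithelial genes were uneven. SNAI1 was expressed, at a mean of 2.04 TPM, whereas ZEB1 and ZEB2 did not pass 0.02 TPM in any library. Of 10 endothelial markers 2 (EGFL7 and ESAM) were expressed, a share of 20% against 45.3% of all genes. The immune cell list had 2 of 15 (HLA-DRA and CD68, 13.3%) and the adipocyte list 2 of 7 (CFD and PLIN4, 28.6%). PECAM1 and KDR had no count, PTPRC, the pan-leukocyte antigen CD45, reached at most 0.02 TPM, and FABP4 at most 0.08 TPM. In bulk RNA of a single cell line, expression in few cells and a low level in every cell cannot be told apart.

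Of 33 adhesion and junction genes, 31 (93.9%, against 45.3% of all genes) were expressed, with a median of 60.0 TPM. CDH1, E-cadherin, was at 125.7, 122.8 and 120.7 TPM, with a ratio of 1.99 ± 0.0541 to CDH3. The tight junction genes CLDN1 at 486 ± 27.4 TPM and CLDN4 at 276 ± 29.6 TPM and the desmosomal genes JUP and DSP were among the 8 highest, as were EPCAM, ITGB1, CD24 and CTNNB1. CDH2 and CEACAM6 were the members that were not expressed.

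Genes for milk and secreted products ranged from no count to the level of CLU. The casein genes CSN1S1 and CSN3 and the lactalbumin gene LALBA had no count, and CSN2 was at 0.06, 0 and 0.06 TPM. CLU, clusterin, a secreted chaperone, was at 362.3, 323.9 and 348.8 TPM. LCN2, an iron-siderophore binding protein, was at 65.7, 67.6 and 67.7 TPM, and the prolactin-inducible PIP was at 24.1, 25.9 and 23.1 TPM. In all, 5 of 15 members (33.3%, against 45.3% of all genes) were expressed, among them the milk fat globule gene MFGE8 at 2.21, 2.22 and 2.29 TPM, and the secreted lactoferrin, LTF, did not pass 0.2 TPM.

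Nuclear receptors are transcription factors that bind steroids and other small lipophilic ligands. Of 48 genes, 29 (60.4%, against 45.3% of all genes) were expressed, with a median of 3.25 TPM. PGR was the highest in every library. The orphan receptor gene NR2F6 followed at 94.5, 89.9 and 95.8 TPM, and all of its values lay above those of ESR1. The retinoic acid receptors RARA, at 76.9, 63.2 and 72.9 TPM, and RARG, at 58.7 ± 3.53 TPM, the estrogen-related receptor ESRRA at 55.6 ± 4.64 TPM, the liver X receptor NR1H2 at 39.95 ± 4.13 TPM and RXRA at 38.4 ± 2.63 TPM came next. The ranges of RARG and ESRRA overlapped, as did those of NR1H2 and RXRA.

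The steroid receptors differed widely in level. The glucocorticoid receptor NR3C1 was at 5.34, 5.50 and 5.63 TPM. PGR stood at 30.6 ± 2.00 times NR3C1. ESR2, the second estrogen receptor, was at 0.64, 0.59 and 0.64 TPM, so that ESR1 transcripts were 139 ± 10.5 times as abundant. PPARG, ESRRB, NR0B1 and NR1H4 had no count.

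All 22 cofactors and chaperones of steroid receptors were expressed, against 45.3% of all genes, with a median of 45.5 TPM. The HSP90 genes HSP90AA1, at 2504 ± 142 TPM, and HSP90AB1, at 2025 ± 48.1 TPM, hold unliganded receptors in a binding-competent state and were the highest. The cochaperones PTGES3 at 681 ± 44.6 TPM, FKBP4 at 645 ± 9.84 TPM and STIP1 at 520.4 ± 11 TPM followed. Among enzymes of steroid metabolism 16 of 30 (53.3%) were expressed, near the 45.3% of all genes. HSD17B10 led at 345.4, 304.4 and 332.6 TPM and HSD17B4, a peroxisomal enzyme that can oxidise estradiol, followed at 118.3, 126.4 and 121.7 TPM. CYP1B1, an estrogen hydroxylase, was at 98.4, 98.8 and 86.1 TPM. HSD17B1, which makes estradiol from estrone, was at 13.06, 10.54 and 12.01 TPM, and HSD17B4 stood at 10.4 ± 1.49 times that level. CYP19A1, the aromatase, was at 0, 0 and 0.02 TPM, and HSD3B1 and HSD3B2 had no count.

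Estrogen receptor target genes were expressed in 25 of 26 cases (96.2%, against 45.3% of all genes), with a median of 158 TPM. Beside KRT19, XBP1 and CA12, the highest were CTSD, the protease cathepsin D, at 959.8, 816.8 and 946.6 TPM, IGFBP4 at 554 ± 14.0 TPM and CXCL12 at 470.9, 470.9 and 469.9 TPM. AREG, the growth factor amphiregulin, was at 393.9, 437.0 and 404.9 TPM. GREB1, a cofactor of the estrogen receptor, was at 151.9, 145.5 and 148.5 TPM. TFF1, often used as the readout of estrogen in breast cancer cells, was lower, at 17.1, 13.8 and 15.9 TPM, and SLC7A2 was the member that was not expressed, at 0.18, 0.33 and 0.21 TPM. These levels were measured in medium with serum.

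PRLR led the cytokine receptors, of which 29 of 52 (55.8%, against 45.3% of all genes) were expressed with a median of 3.62 TPM. GHR, the growth hormone receptor and closest relative of PRLR, was at 64.0, 71.2 and 62.8 TPM, and PRLR stood at 6.60 ± 0.413 times that level. IL6ST, the shared signalling chain gp130, was at 73.4, 79.7 and 68.5 TPM, and its range overlapped that of GHR. The chains that pair with it were uneven: OSMR, the oncostatin M receptor, was at 46.5, 49.3 and 45.4 TPM, IL6R at 8.08, 7.13 and 6.99 TPM and LIFR at 0.54, 0.62 and 0.46 TPM. IL6ST transcripts were thus 138 ± 10.3 times as abundant as those of LIFR. IFNGR2 at 51.4 ± 2.06 TPM, IL17RC at 39.1 ± 3.65 TPM, IL13RA1 at 32.0 ± 1.07 TPM and IFNAR1 at 29.4 ± 2.15 TPM were also among the 8 highest. IL2RG, the shared chain of lymphocyte cytokine receptors, had no count.

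Receptor tyrosine kinases were expressed in 29 of 58 cases, a share of 50% beside the 45.3% of all genes, with a median of 0.960 TPM. DDR1, a collagen receptor of epithelia, was at 333.7, 286.3 and 318.0 TPM. ERBB3, the kinase-impaired partner of ERBB2, was between 99.2 and 100 TPM in the 3 libraries, and RYK at 83.2, 87.6 and 81.2 TPM. PTK7, EPHB4, IGF1R, ERBB2 and FGFR3 lay between 27.9 and 38.04 TPM in every library, and each of these neighbours overlapped the next. Within the ERBB family, ERBB3 stood at 3.10 ± 0.241 times ERBB2, and ERBB2, at 34.1, 29.6 and 33.0 TPM, at 5.95 ± 0.263 times EGFR. ERBB4 was lowest at 3.23 ± 0.140 TPM. IGF1R transcripts were 30.4 ± 1.33 times as abundant as those of the insulin receptor INSR, at 1.19, 1.05 and 1.09 TPM. FLT3, EPHA5, KDR and TIE1 had no count.

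**Figure D3:**
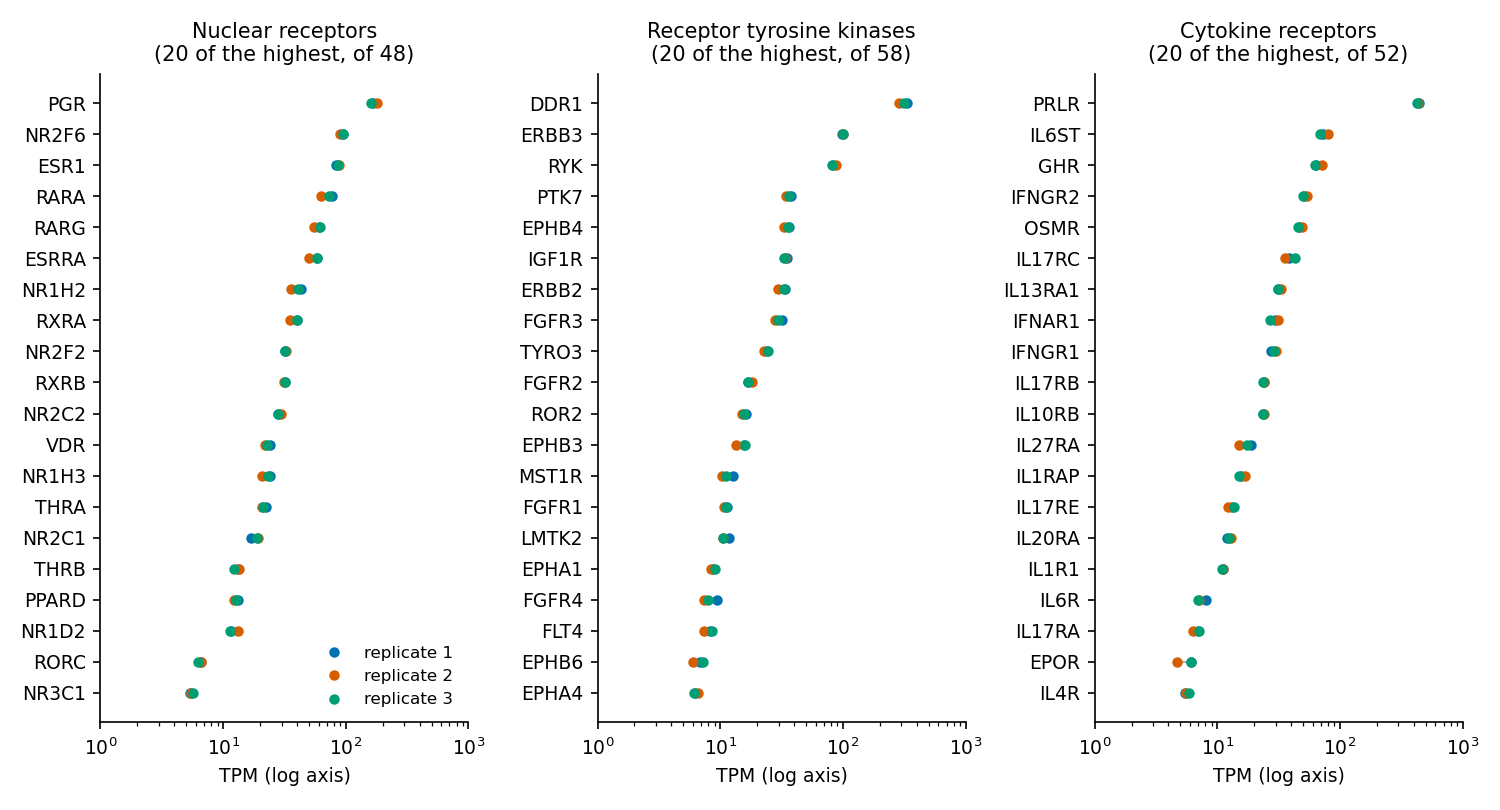
TPM of 20 of the highest nuclear receptors, receptor tyrosine kinases and cytokine receptors on log axes, with a point for each control library. PGR, DDR1 and PRLR lead their families without overlap with the next gene, and PRLR stands furthest from its neighbour.

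Other receptor families had lower leading members. Of 14 TGF-beta family receptors 9 were expressed (64.3%, against 45.3% of all genes), with a median of 2.88 TPM. They were led by BMPR1A at 44.8 ± 2.70 TPM and ACVR1B at 29.97 ± 1.27 TPM. The pair that binds TGF-beta itself was unequal: TGFBR1, the type I receptor, was at 13.0, 13.4 and 11.6 TPM, and TGFBR2, the type II receptor that captures the ligand, was at 0.03, 0.09 and 0.04 TPM. Of 29 TNF receptor genes 14 were expressed, a share of 48.3% beside the 45.3% of all genes, led by TNFRSF12A at 67.8 ± 4.11 TPM and the TRAIL receptor TNFRSF10B at 51.65 ± 0.789 TPM. Of 22 Notch, Wnt and Hedgehog receptor genes 15 were expressed (68.2%, against 45.3% of all genes), with a median of 5.31 TPM. They were led by NOTCH2 at 55.2 ± 1.76 TPM and NOTCH3 at 45.8 ± 4.07 TPM. NOTCH2 stood at 4.92 ± 0.341 times NOTCH1.

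Cell cycle genes were abundant. All 21 PAM50 proliferation genes, from the expression signature that types breast tumours, were expressed, against 45.3% of all genes. Their median was 102 TPM, and 11 of them were at 100 TPM or more on average. PTTG1, securin, was at 466.3, 488.0 and 481.0 TPM, UBE2C at 463.7, 474.2 and 459.7 TPM, and MKI67, the Ki-67 antigen, at 86.2, 87.9 and 84.9 TPM. Of the cyclin and inhibitor genes, 19 of 23 (82.6%, against 45.3% of all genes) were expressed. CDK4 was at 289.6, 281.1 and 284.6 TPM and its paralogue CDK6 at 0.42, 0.42 and 0.29 TPM. CCND1, cyclin D1, was at 89.5, 88.0 and 84.7 TPM and CCND3 at 78.1, 66.0 and 74.5 TPM, whereas CCND2 did not pass 0.01 TPM and CCNA1 had no count. CDK4 stood at 780 ± 175 times CDK6, a ratio set by the low and variable CDK6 values.

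The remaining PAM50 genes were read as lists only, with no subtype call. All 13 luminal genes were expressed, against 45.3% of all genes, with a median of 74.2 TPM, led by BLVRA at 182.7 ± 3.8 TPM. All 4 HER2 genes were expressed, with ERBB2 the highest and GRB7, its chromosomal neighbour, at 6.71 ± 0.715 TPM. Of 12 basal genes 7 (58.3%, against 45.3% of all genes) were expressed, led by the serine synthesis enzyme PHGDH at 149.0, 136.3 and 144.9 TPM. CDH3 was next, and KRT14 and SFRP1 had no count. All 28 breast cancer driver genes were expressed, against 45.3% of all genes. Behind GATA3 stood the kinase gene AKT1 at 161 ± 8.23 TPM and the E-cadherin gene CDH1.

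HOX genes, which record position along the body axis, were unevenly used by cluster. Of 39 HOX genes, 14 (35.9%, against 45.3% of all genes) were expressed. They were 8 of 9 HOXC genes, 3 of 11 HOXA genes, 3 of 10 HOXB genes and 0 of 9 HOXD genes. The HOXC members summed to 206.0, 198.0 and 214.1 TPM, and the HOXD members to at most 0.75 TPM. HOXC10 was the highest at 111.6, 108.5 and 117.3 TPM, followed by HOXB2 at 37.8 ± 0.907 TPM and HOXC13 at 33.8 ± 0.975 TPM. HOTAIR, the long noncoding RNA made from the HOXC cluster opposite to HOXC11, was at 13.6, 13.4 and 13.9 TPM, with 577, 540 and 581 expected counts. HOXC11 was at 17.1, 15.5 and 17.5 TPM. Reads of HOTAIR and HOXC11 where they overlap cannot be told apart, because the labels do not settle whether strand was used in counting.

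Long noncoding RNAs were expressed in 22 of 29 listed cases (75.9%, against 45.3% of all genes). SNHG5 at 678.1, 725.7 and 669.6 TPM and GAS5 at 639.2, 677.2 and 645.9 TPM are hosts of small nucleolar RNAs and were the highest, followed by the host genes ZFAS1, SNHG6 and SNHG8. DSCAM-AS1, a noncoding RNA of estrogen receptor-positive breast cancer, was at 181.3, 187.1 and 188.4 TPM. NEAT1, the scaffold of paraspeckles, was at 139.2, 140.8 and 139.5 TPM. NORAD was at 196 ± 15.3 TPM. Transcripts with noncoding RefSeq accessions together took 4.03% ± 0.0553 of TPM.

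The most abundant genes were those of protein synthesis. Of the 30 with the highest mean TPM, 23 encode ribosomal proteins, led by RPS18 at 12196 TPM, RPL35A at 8296 TPM and RPS24 at 8205 TPM. The other 7 were HSPA8, the constitutive HSP70 chaperone, at 5467 ± 180 TPM, the mitochondrial ribosomal RNAs RNR2 and RNR1, TMSB4X, which binds actin monomers, at 4819 ± 108 TPM, the elongation factors EEF1A1 and EEF1G, and KRT8. Ribosomal RNA was depleted before sequencing, so the levels of RNR2 and RNR1 may not be those in the cells. Cytosolic ribosomal protein genes took 22.4% ± 0.177 of all TPM but 6.43% of expected counts, since their transcripts are short. Subunits of the respiratory chain and ATP synthase took 3.63% ± 0.0287 and heat shock and chaperonin proteins 1.964% ± 0.0424. The 57 keratin genes, of which 8 were expressed, took 0.937%, 0.812% and 0.922% of TPM in replicates 1, 2 and 3, lowest in replicate 2. The 10 highest genes held 6.86% of TPM, the 100 highest 30.1% ± 0.175 and the 1000 highest 62.9%. Ribosomal protein genes have many processed copies, so their levels may depend on how RSEM shared reads between copies, which was not tested.

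Alternative transcripts add a layer that gene totals hide, and epithelial cells are known for particular exon choices made by the splicing factors ESRP1 and ESRP2. Of 12 splicing regulators, 11 (91.7%, against 45.3% of all genes) were expressed. Among them were ESRP1 at 139.5, 152.0 and 134.6 TPM and ESRP2 at 92.8, 87.1 and 94.1 TPM. HNRNPA1, an abundant nuclear RNA-binding protein, was the highest at 929.7, 1005 and 940.4 TPM. ESRP1 stood at 16.2 ± 0.661 times QKI, a factor of mesenchymal splicing, and RBFOX1 had no count. The share of each transcript in its gene is given as IsoPct, a percent of the gene's TPM as RSEM divides it. Of 8114 expressed genes with at least 2 listed transcripts, 7175 (88.4%) had the same leading transcript in all 3 libraries, and in 2242 (27.6%) that transcript held at least 90% in each. The median share of the leading transcript was 78.9%. In the 939 genes with differing leaders the median share was 52.1%, and the library that differed was replicate 1 in 264, replicate 2 in 294 and replicate 3 in 328, with 53 further genes in which all 3 differed. A further 4560 expressed genes had 1 listed transcript.

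FGFR2, a receptor for fibroblast growth factors, uses exclusive exons for its ligand-binding domain, of which the IIIb exon is the epithelial choice. Transcripts with the IIIb exon held 84.4%, 73.3% and 79.7% of the gene in replicates 1, 2 and 3. The IIIb form led in every library, least in replicate 2. The exon is shown because it sets this form apart. In capitals is the IIIb exon, at chr10:121518682-121518829 on the minus strand of GRCh38, taken from a GENCODE v29 transcript matched to the RefSeq name of the files, with neighbouring exon bases in lower case. The files themselves use hg19, so this position and those below hold for GRCh38 only.
FGFR2 IIIb exon: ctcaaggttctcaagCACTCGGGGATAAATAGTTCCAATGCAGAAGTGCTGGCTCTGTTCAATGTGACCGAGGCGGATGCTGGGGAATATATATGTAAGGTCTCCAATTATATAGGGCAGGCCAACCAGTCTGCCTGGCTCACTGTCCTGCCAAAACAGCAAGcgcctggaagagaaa

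PKM, pyruvate kinase of glycolysis, likewise uses 1 of 2 exclusive exons, M2 in dividing cells or M1 in muscle and brain. Transcripts with the M2 exon held 96.6%, 93.7% and 95.5% of the gene, and replicate 2 was the lowest. The exons, at chr15:72202454-72202620 for M2 and chr15:72203022-72203188 for M1 on the minus strand of GRCh38, are both 167 bases long and differ at 62 positions (62.9% identity). They are shown in capitals in the same way.
PKM M2 exon: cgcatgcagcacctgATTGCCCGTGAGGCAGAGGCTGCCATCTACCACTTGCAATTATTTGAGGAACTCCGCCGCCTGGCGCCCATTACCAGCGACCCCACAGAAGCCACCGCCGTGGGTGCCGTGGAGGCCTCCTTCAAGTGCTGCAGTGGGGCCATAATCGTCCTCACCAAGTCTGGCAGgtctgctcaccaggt
PKM M1 exon: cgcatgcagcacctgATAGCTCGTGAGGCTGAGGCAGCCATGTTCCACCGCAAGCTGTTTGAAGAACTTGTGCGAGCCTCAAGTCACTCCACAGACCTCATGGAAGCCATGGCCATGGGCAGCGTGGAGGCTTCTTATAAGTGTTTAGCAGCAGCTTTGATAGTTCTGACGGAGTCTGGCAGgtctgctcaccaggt

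Cassette exons of actin regulators were also included in part. RAC1, a small GTPase of the cell edge, has a 57-base exon at chr7:6398662-6398718 on the plus strand of GRCh38 that is in frame, so that the form called RAC1b has 211 residues in place of 192. Its share was 30.98%, 29.97% and 30.08%, the steadiest of the partial exon choices described here. ENAH, the actin regulator Mena, has a 63-base exon at chr1:225504991-225505053 on the minus strand, known as 11a and typical of epithelia. Its share was 72.1%, 74.4% and 70.4%. Most ENAH and a minority of RAC1 transcripts thus carried their exon in every library. The exons are in capitals.
RAC1 57-base exon: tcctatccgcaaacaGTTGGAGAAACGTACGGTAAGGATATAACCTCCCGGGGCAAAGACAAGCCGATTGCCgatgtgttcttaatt
ENAH 63-base exon: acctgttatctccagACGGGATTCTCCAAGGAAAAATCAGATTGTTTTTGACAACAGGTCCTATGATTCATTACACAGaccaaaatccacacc

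XBP1 is cut outside the nucleus by the stress sensor IRE1, which removes 26 bases at chr22:28796124-28796149 on the minus strand of GRCh38 and so shifts the reading frame to the active factor. The form that keeps the 26 bases held 99.2%, 99.2% and 99.4% of XBP1 transcripts, and the cut form 0.80%, 0.75% and 0.56%. High XBP1 RNA in these cells was therefore nearly all in the uncut form. The stretch removed by IRE1 is in capitals.
XBP1 26 bases: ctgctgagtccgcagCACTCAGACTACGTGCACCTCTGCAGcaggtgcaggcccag

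**Figure D4:**
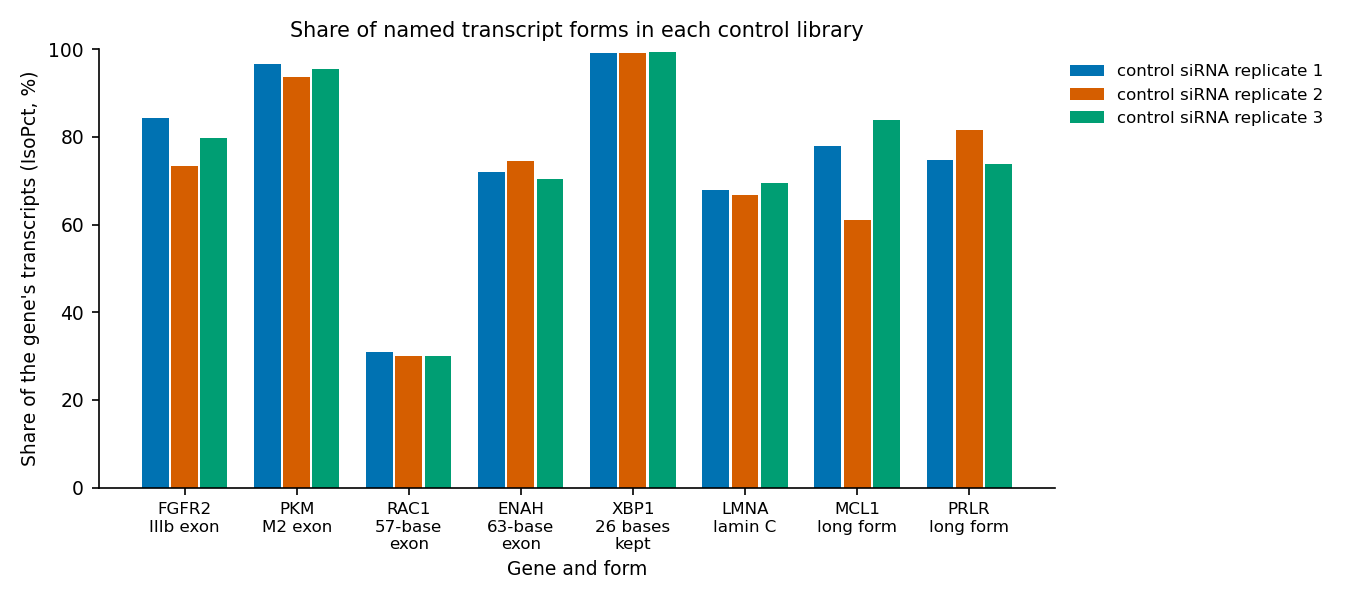
Share of named transcript forms of 8 genes (IsoPct in percent, bars from 0) in each control library. The RAC1 and XBP1 forms vary least over the libraries, and the leading MCL1 form ranges from 61.1% in replicate 2 to 84.0% in replicate 3.

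Hormone receptor genes differed in how settled their transcripts were. ESR1 was held by NM_000125 at 89.0%, 87.0% and 87.9%. GATA3 was split between NM_001002295, at 79.0%, 81.2% and 81.2%, and NM_002051, which encode 444 and 443 residues. PGR was led by NM_001202474 at 56.0%, 51.9% and 59.3%, followed by NM_000926 at 33.8%, 22.7% and 32.9%. NM_001271162 took 8.36%, 23.6% and 5.4%, so that replicate 2 stood apart in how RSEM divided PGR. These PGR transcripts share most of their length, and the division between them rests on the few reads that differ. FOXA1 and CCND1 have 1 transcript in the tables.

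PRLR transcripts were of unequal length. NM_000949, 11685 bases long and encoding the full receptor of 622 residues, held 74.8%, 81.6% and 73.8% of PRLR transcripts. NM_001204315, 1402 bases long and encoding 349 residues, held 22.6%, 15.4% and 23.7%. By expected counts the long transcript took 96.2% of the gene and the short one 2.78%. The gene's TPM therefore depends on how few reads were given to the short transcript. The long transcript alone was at 330.5, 356.3 and 313.7 TPM, a range that overlapped that of GATA3.

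Other forms with known roles followed the same layout. Lamin C, NM_005572, held 68.0% ± 1.44 of LMNA transcripts and lamin A, NM_170707, 31.4% ± 1.41. MCL1, a guard against apoptosis, was led by the long protective form NM_021960 at 77.9%, 61.1% and 84.0%, and the form of 197 residues, NM_001197320, took 21.9%, 37.3% and 15.2%, highest in replicate 2. CD44, the hyaluronan receptor, was led by variable-exon forms: NM_001001389 held 53.3% ± 3.12 and NM_000610 24.8% ± 2.21. INSR could not be settled, with its form NM_001079817 at 53.4%, 54.6% and 100% on a mean of 193 expected counts.

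Among 6929 genes with a mean expected count of at least 1000, those with 1 transcript included, the median gene had a largest IsoPct range of 1.8 points over the libraries, and 163 had a range over 20 points. The largest belonged to B4GALT2, whose transcript NM_001005417 held 0.20%, 70.8% and 85.0%, followed by TOMM40, KRIT1, ZNF281 and FGD4. In B4GALT2 the same transcript had 4.12, 1238 and 1793 expected counts. The gene as a whole had a mean of 2016 expected counts. The cause of these ranges was not tested.

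The 3 libraries were close, with 1 of them apart. The common biological coefficient of variation, the spread beyond counting error that edgeR estimates, was 0.0540 over 14192 genes. Without replicate 2 it was 0.0217, without replicate 1 it was 0.0660 and without replicate 3 it was 0.0637. Replicates 1 and 3 thus lay closest to each other, with a median absolute log2 difference of 0.060, against 0.117 between replicates 1 and 2 and 0.123 between replicates 2 and 3. Over 14559 genes with a mean count of at least 10, replicate 2 was furthest from the middle value in 55.6%, replicate 1 in 21.3% and replicate 3 in 23.1%. It was below both others in 5944 genes and above both in 5978. No pair of libraries agreed within sampling noise, with a chi-square of at least 2.20 per degree of freedom, and each was counted as 1 replicate.

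The deviation of replicate 2 moved with base composition. Its log2 CPM, a count scaled to library size, minus the mean of the others was taken over 5 equal groups of genes by GC content. Its median was 0.12 in the group with the lowest GC content (median GC 38.8%) and -0.20 in that with the highest (median GC 62.04%). In the lowest group replicate 2 lay above the mean of the others in 95.9% of genes, and in the highest in 2.85%. Across 11032 genes that could be matched (94.4% of those with a mean count of at least 100), Pearson's r between GC content and this deviation was -0.788, a description across genes that share the libraries. Between replicates 1 and 3 alone the same r was 0.044. With transcript length the deviation of replicate 2 had an r of 0.167.

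**Figure D5:**
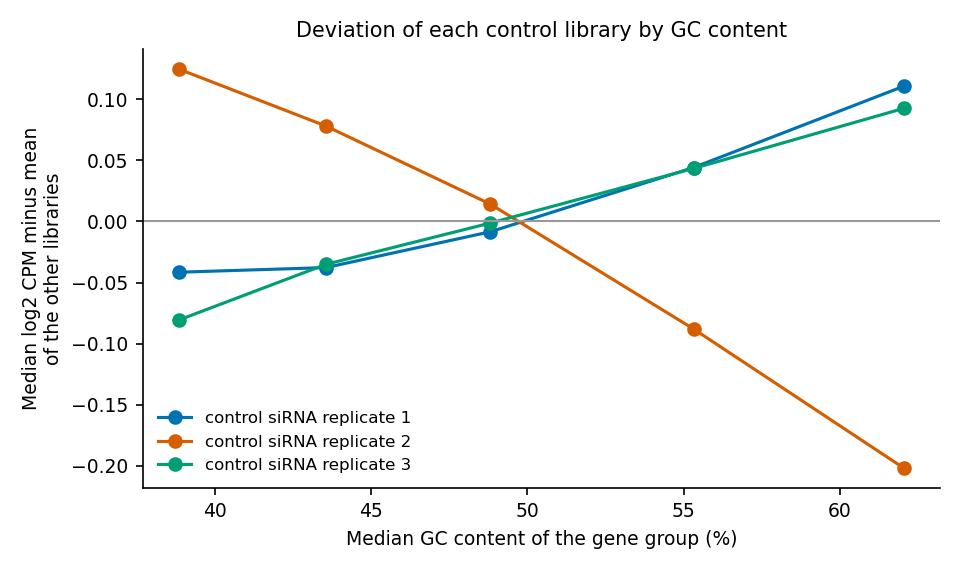
Median deviation of each control library from the mean of the others (log2 CPM) for 5 groups of genes by GC content of their leading transcript, 2206 or 2207 genes each. Replicate 2 falls from 0.12 to -0.20 as GC content rises. The curves of replicates 1 and 3 rise, but replicate 2 is part of the mean that each is set against. Between replicates 1 and 3 alone, Pearson's r with GC content was 0.044.

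The same slope was seen in the marker genes. KRT8, with a GC content of 59.7%, deviated by -0.24 in replicate 2, KRT19 (61.8%) by -0.22 and KRT18 (60.5%) by -0.15. PRLR, with 38.5% GC, deviated by 0.11, PGR (41.4%) by 0.07 and ESR1 (47.1%) by 0.04. GATA3 (53.7%) was at -0.16 and ERBB2 (60.3%) at -0.20. FOXA1 went against the slope, with 51.3% GC and a deviation of 0.06. The part of base composition in the lower keratin and GATA3 levels of replicate 2 was not tested.

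The genes with the largest spread were mostly hard to count. NUDT4P2 had 313, 0 and 174 expected counts, SMN2 had 31.03, 66.7 and 348 and GTF2H2C had 199, 21.4 and 99.0. These 3 have near-identical copies in the genome, so their values are uncertain. Among the 10 most variable genes, 5 have hyphenated symbols of read-through genes, such as CHURC1-FNTB, which overlap the genes they join. The others were GCOM1 and AKAP2. Among the 10 genes with the smallest spread were RABEPK, TRAPPC10, RNF215, KCTD21, GM2A, C12orf49, IL17RB, PPP1R8 and SMC1A, the last with 16028, 15334 and 15742 expected counts for a cohesin subunit.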

How the data were processed

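Total RNA of 3 control siRNA transfections of T47D cells was analysed; the 3 other libraries of the series were left out. The submitters' processing notes list STAR 2.6.0c, RSEM 1.3.0 and the build hg19; their settings, strand included, are not given in the sources used here. Per the file headers, the authors deposited RSEM expected counts and TPM per gene and transcript, and the share of each transcript in its gene (IsoPct) as a percent. Whole-gene depth was 35106084 to 36707169 expected counts, so that 1 CPM stood for 35.1 to 36.7 counts.

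TPM were used as deposited. Expected counts were rounded for edgeR 4.0.16 (R 4.3.3), filtered with filterByExpr (minimum count 10, minimum total 15) and scaled by TMM, and log2 CPM used a prior count of 2. DESeq2 1.42.0 served as an alternative. The spread estimate was tested on simulated counts drawn with the same spread for all genes. These counts held no deviation along GC content like that of replicate 2, so the estimate was not tested for that case. Tables were handled with Python 3.11.15, numpy 2.4.6 and pandas 2.3.3. RefSeq transcripts were matched to GENCODE v29 (217 of 227 in the transcript form genes), and several can share 1 match.

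Named genes are the 30 highest by mean TPM (effective length of at least 200 bases), the 7 markers, up to 8 leading members of each of 29 lists with members at 0, leading transcripts of listed genes, the 10 most and least variable genes (mean count of at least 100), the 5 with the largest IsoPct range and the neighbours of ESR1, PGR and PRLR. Other list members were named after their values were seen. The members and lists were chosen with earlier results of these data known, and the 12 gene classes by symbol were written after the data were seen. Some genes and sequences chosen by these rules are not reported here.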

Additional observations from a re-analysis of the deposited data

How the results depend on the processing

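No paired analysis was possible because 1 group was used and no result comes from a test. The expressed-gene count ranged from 12754 to 12778 and the genes with 1 leading transcript from 7468 to 7532 when a library was left out. Both counts require every library used to pass or to agree, so they could only stay or rise. The gap between the luminal and basal medians, 6.64, was 8.29 with a pseudocount of 0.1, 7.32 with 0.5, 3.92 over members with a mean TPM of at least 1, 5.55 with means in place of medians and 6.84 with CPM. The share of the 100 highest genes, 30.1% of TPM, was 30.5% with very short genes included and 15.9% as a share of expected counts. The common biological coefficient of variation, 0.0540, ranged from 0.0217 to 0.0660 when a library was left out, lowest without replicate 2, and was 0.0673 from DESeq2. Replicate 2 was furthest from the others in 60.5% of genes with a mean count of at least 100, against 55.6%. All 35 alternatives for the 7 markers stayed within 1 SD of the reported TPM. Those that left a library out could not do otherwise, since a mean over 3 libraries then moves by less than 1 SD. The alternatives that changed the scaling also had little room to move a marker. Very short genes held only 1.37% to 1.42% of TPM, and the TMM factors ran from 0.998 to 1.002. Without replicate 2, an alternative chosen after seeing the data, 27 of 29 lists kept the same count of expressed members and 2 gained 1 member. These counts too could only stay or rise when a library was left out. Precision at low levels is limited by depth. For genes of no count, the limit given is the TPM of 3 counts pooled over the 3 libraries, and it covers counting error only.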
